A study of Mus musculus with 24 samples.

Results

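The 10 genes described here encode the core of the switch that lets a mouse cell leave the G1 phase of the cell cycle. They were the D-type cyclins Ccnd1, Ccnd2 and Ccnd3, the E-type cyclins Ccne1 and Ccne2, the kinases Cdk4 and Cdk6, and the inhibitors Cdkn1b, Cdkn2a and Cdkn2b. They were taken by name from a table of raw read counts, in which all 10 were found among 35591 genes. The counts came from poly(A) RNA sequencing of 24 libraries, made from male primary mouse embryonic stem cells (mESCs) on their way to neuromesodermal progenitors (NMPs), the bipotent cells that give rise to spinal cord and trunk mesoderm. Of the 6 lines, 3 carried Smchd1[fl/+] and are called wild-type (wt), and 3 carried Smchd1[del/+] and are called heterozygous (het). All lines were first-generation hybrids whose mother was Castaneus and whose father was C57BL/6, and the fathers carried MMTV-Cre with 1 deleted and 1 floxed Smchd1 allele, so that wt and het lines differ in which of these they inherited. Cells were collected at day 0 in serum medium with LIF, at day 2 in serum-free medium with FGF, at day 2.5 after a Wnt pathway activator (CHIR99021) had been added at day 2, and at day 3. This gave 8 groups of 3 lines, in which each line was sampled 4 times. By the paper's protocol, cells for day 0 were seeded more densely than those for the later days, so comparisons with day 0 also differ in density. The comparison of het with wt asked whether a cell that has lost 1 of its own Smchd1 copies expresses genes differently.

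In a dividing cell, D-type cyclins bind Cdk4 or Cdk6, and E-type cyclins bind Cdk2. Both kinds of complex phosphorylate the retinoblastoma protein and its relatives, which frees E2F factors to switch on the genes of DNA replication. Cdkn1b encodes p27Kip1, which binds cyclin E complexes, while Cdkn2b and the Ink4a transcript of Cdkn2a encode proteins that bind Cdk4 and Cdk6, and the Arf transcript of Cdkn2a acts through Mdm2 and p53. Mouse ESCs in serum medium with LIF are known for a short G1 phase, high cyclin E and low levels of these inhibitors, and G1 lengthens as pluripotency is lost.

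The libraries held 7.10 to 20.8 M (mega) counts, with a median of 17.9 M and the smallest total in wt day 2.5 line 2. A floor of 3 counts corresponds to 0.144 to 0.422 counts per M counts (CPM), covers counting error only, and lay below every value of the 10 genes. CPM values were TMM-scaled, that is corrected for library composition by a trimmed mean of log ratios. The culture matched its label: the summed level of 8 naive pluripotency markers was 1303 to 1510 CPM at day 0 and 126 to 235 CPM in all later libraries, and that of 8 NMP markers was 5.79 to 9.56 CPM at day 0 and 458 to 1322 CPM at days 2.5 and 3. The summed level of 22 extraembryonic endoderm markers was 1666 to 4336 CPM at day 0 and 4341 to 16110 CPM later. In bulk RNA, a change in the share of a cell type and a change in RNA per cell cannot be told apart. Smchd1 itself was at 66.3%, 59.9%, 66.0% and 54.7% of the wt mean in het lines in the order of the 4 days, and its lines did not overlap between genotypes on any day. Summed over its 4 libraries, wt line 1 stood apart on chromosome 8, where its median log2 ratio to the mean of the 6 lines was 0.19 over 799 genes, beside -0.071 to 0.028 in the other lines. None of the 10 genes lies on that chromosome, and calls that changed without this line are given beside each result. Counting appears to have ignored strand, since a pair of genes that mirror each other on opposite strands had equal counts, up to 22, in all 24 libraries. Reads of a gene and of a partner whose exons overlap it on the other strand therefore cannot be told apart, and such partners are named below.

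**Figure D1:**
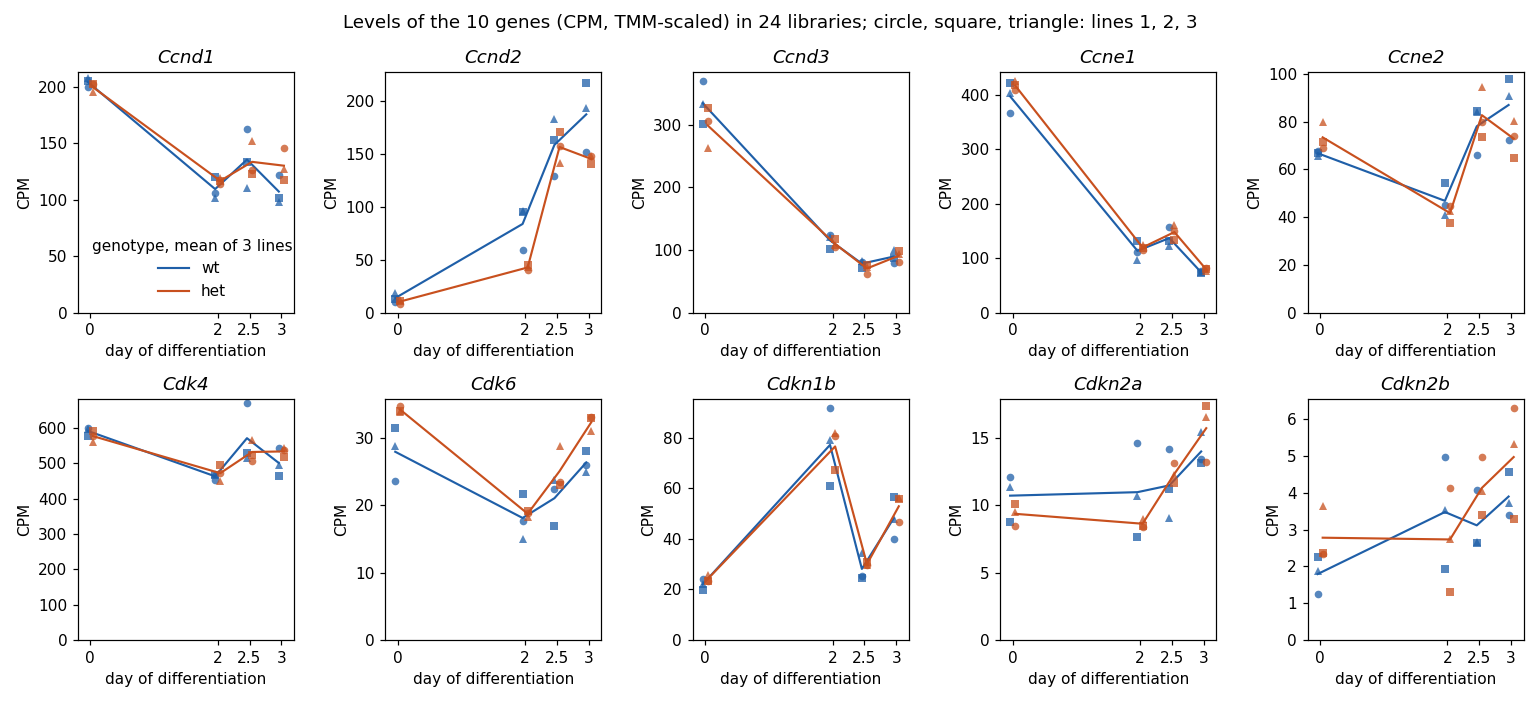
Level of each gene in CPM (TMM-scaled, linear axes from 0) against day of differentiation, with 1 point per library (circle, square and triangle for lines 1, 2 and 3) and lines through the means of the 3 wt (blue) and 3 het (orange) lines. Ccnd3 and Ccne1 drop after day 0, Ccnd2 climbs from 8.26 to 18.7 CPM at day 0 to 140.0 to 217 CPM at day 3, and Cdkn1b peaks at day 2.

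Per length of merged exons, Cdk4 was the most abundant of the 10 transcripts in every group, at 182 ± 3.95 CPM per kb in wt at day 0 (SD, n = 3) and 154 ± 12.4 at day 3. Ccne1 was next at day 0, at 149 ± 10.6 CPM per kb in wt and 157 ± 2.99 in het, and Ccnd1 followed at 43.4 ± 0.892 in wt and 42.4 ± 0.874 in het (SD, n = 3). At day 0 the order in wt went on with Ccnd1, Ccnd3, Ccne2, Cdkn2a, Cdkn1b, Cdk6, Ccnd2 and Cdkn2b. The lines of neighbours in that order did not overlap, except between Cdk6 and Ccnd2 and between Ccnd2 and Cdkn2b. By day 3 the wt levels per kb of Ccne1 (27.8 ± 0.797), Ccne2 (24.9 ± 3.76), Ccnd1 (22.8 ± 2.72) and Ccnd2 (19.9 ± 3.52) lay close together, each overlapping the next (SD, n = 3). Cdk6 and Cdkn2b were the lowest at days 2, 2.5 and 3 in both genotypes, at 1.3 to 3.58 CPM per kb in the group means. The order among genes depends on the length used: with the median length of the coding transcripts in place of merged exons, Ccnd1 made up 12.4% ± 1.17 of the D-type cyclin level in wt at day 0 rather than 52.4% ± 2.70 (SD, n = 3), an alternative chosen after seeing the data.

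**Figure D2:**
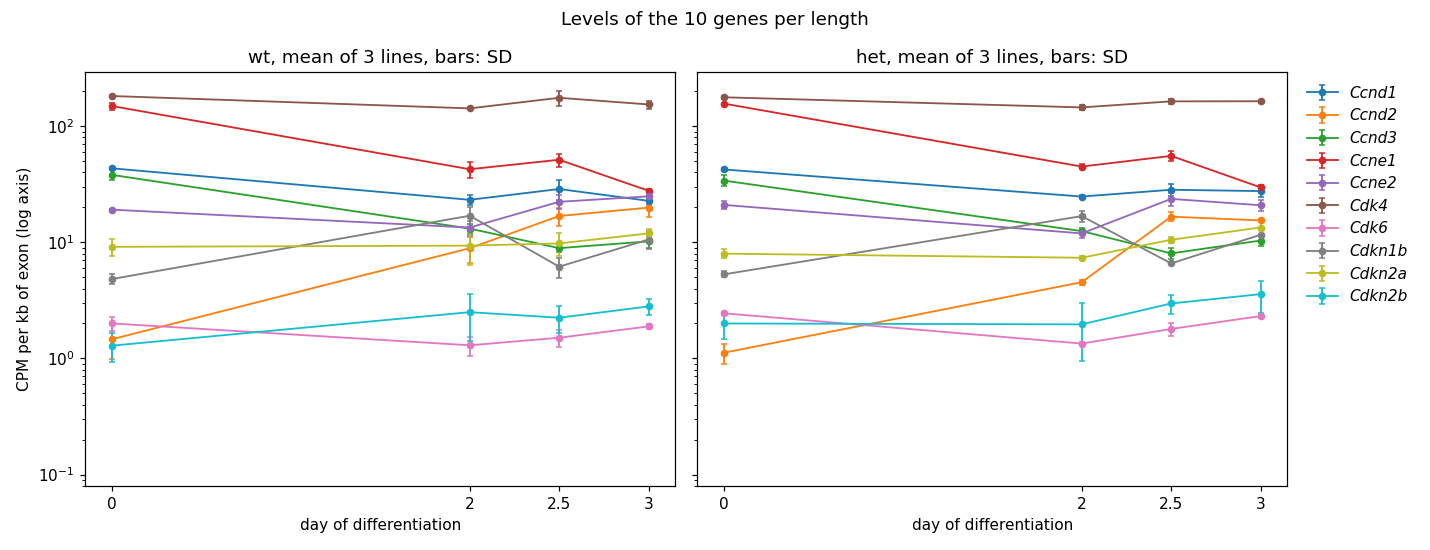
Mean level of each gene in CPM per kb of merged exon on a log axis against day of differentiation, in wt (left) and het (right), with bars for the SD of 3 lines. Cdk4 is highest on each day, and the cyclins converge between day 0 and day 3 as Ccne1 drops and Ccnd2 climbs.

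Each step of the differentiation was tested within each genotype by edgeR's quasi-likelihood test over all genes that passed a filter on low counts, and a gene is said to rise or fall where its Benjamini-Hochberg adjusted p was under 0.05. All 10 members passed the filter in every comparison. From day 0 to day 2, 2 members rose (Ccnd2 and Cdkn1b) and 6 fell (Ccnd1, Ccnd3, Ccne1, Ccne2, Cdk4 and Cdk6) in wt, where 22.4% of all 15521 genes tested rose and 21.9% fell. The same 2 rose and the same 6 fell in het, where 28.0% of genes rose and 28.1% fell. The median log2 fold change of the members was -0.43 in wt and -0.52 in het, beside 0.02 and 0.0055 over all genes tested.

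From day 2 to day 2.5, the interval with Wnt activation, Ccnd2 and Ccne2 rose and Ccnd3 and Cdkn1b fell in wt, that is 2 members in each direction, beside 14.6% of genes that rose and 14.5% that fell. In het, 5 members rose (Ccnd2, Ccne1, Ccne2, Cdk6 and Cdkn2a) and 2 fell (Ccnd3 and Cdkn1b), beside 21.8% and 22.9% of genes. From day 2.5 to day 3, Cdkn1b rose and Ccne1 fell in wt, beside 8.99% and 10.1% of genes, and 3 members rose (Ccnd3, Cdk6 and Cdkn1b) and Ccne1 fell in het, beside 13.8% and 16.0% of genes. Over the whole interval from day 0 to day 3, 4 members rose and 4 fell in wt, beside 27.0% and 26.6% of genes, and 4 rose and 3 fell in het, beside 32.7% and 31.6%. Without wt line 1 on both days, an alternative added after seeing the data, the members called in wt stayed the same over each single step, and from day 0 to day 3 all were called again except Cdkn2b (adjusted p = 0.0749). Whether a step differed between genotypes is tested further on. With the line as a block, the number of genes called from day 2.5 to day 3 in wt was 4687 rather than 2923. Scaling by library totals alone shifted the median of all genes by up to 0.115 on the log2 scale (day 3 against day 0 in het).

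**Figure D3:**
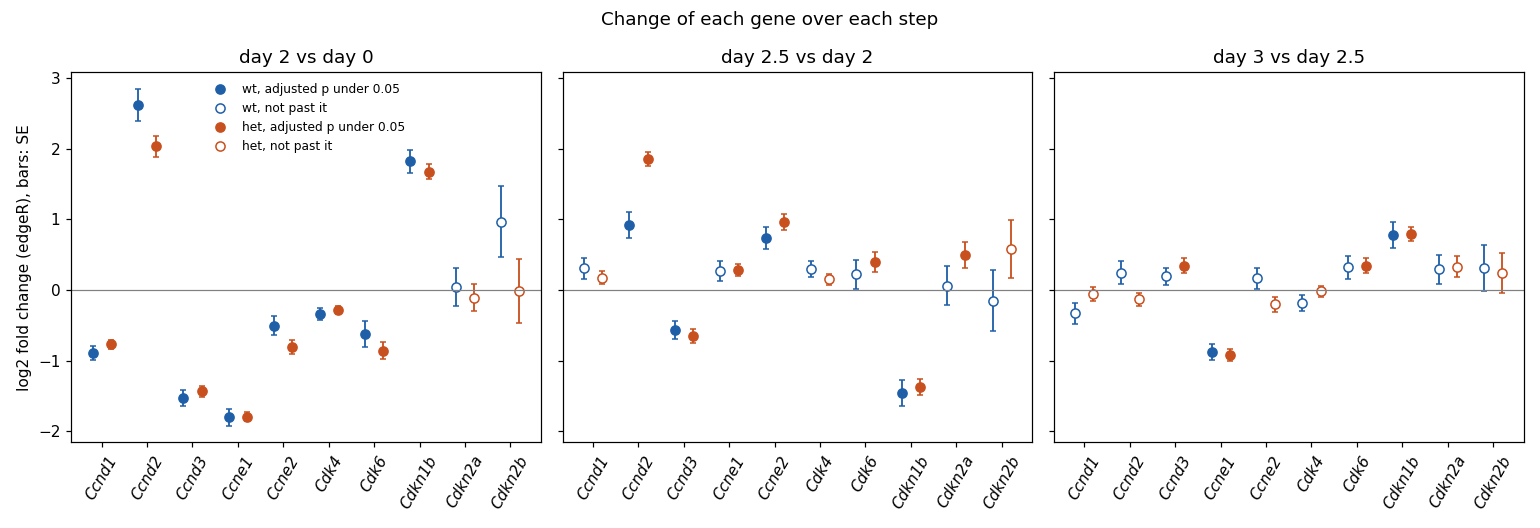
Log2 fold change (edgeR) of each gene over the steps day 0 to 2, day 2 to 2.5 and day 2.5 to 3 in wt (blue) and het (orange), with bars for the SE. Filled points passed an adjusted p of 0.05, and the points of both genotypes lie on the same side of 0 for each gene that passed in both.

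Ccnd2 showed the widest change of the 10. This cyclin gene (chr6:127125162-127152193, minus strand, GRCm38) held 9.95, 12.7 and 18.7 CPM in wt lines 1, 2 and 3 at day 0, and 59.6, 95.5 and 96.1 CPM at day 2. The same lines held 129, 163 and 183 CPM at day 2.5 and 152, 217 and 193 CPM at day 3. The wt lines thus rose without overlap from day 0 to day 2 and from day 2 to day 2.5, and overlapped between days 2.5 and 3. In het lines 1, 2 and 3 the levels were 8.26, 11.1 and 12.2 CPM at day 0, 40.2, 44.6 and 43.2 at day 2, 157, 170 and 142 at day 2.5, and 148, 140.0 and 148 at day 3. The het lines rose without overlap over the first steps and overlapped between days 2.5 and 3. Ccnd2 rose 6.13-fold from day 0 to day 2 in wt (log2 fold change 2.62, SE 0.23, adjusted p = 9.06e-07) and 4.08-fold in het (2.03, SE 0.15, adjusted p = 2.05e-08). From day 2 to day 2.5 it rose 1.89-fold in wt (0.92, SE 0.18, adjusted p = 0.00247) and 3.62-fold in het (1.86, SE 0.10, adjusted p = 8.71e-09). Between day 0 and day 3 the rise came to 13.7-fold in wt and 13.9-fold in het. Of its merged exons, 7.86% overlap Gm43126 and 9330179D12Rik on the other strand, whose levels reached at most 10.2% and 0.061% of that of Ccnd2 in any library.

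Endoderm markers moved in part with Ccnd2. Of the 19 endoderm markers tested from day 0 to day 2, 13 rose and 0 fell in wt, and 14 rose and 1 fell in het, where 22.4% of all genes rose in wt and 28.0% in het. From day 2 to day 2.5, 2 rose and 1 fell in wt, and 12 rose and 1 fell in het, beside 14.6% and 21.8% of all genes that rose. Their part in the rise of Ccnd2 was not tested.

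The other D-type cyclins went down. Ccnd3 (chr17:47505051-47599691, plus strand) was at 369, 302 and 332 CPM in wt lines 1, 2 and 3 at day 0, 123, 101 and 121 at day 2, 81.5, 71.1 and 81.9 at day 2.5, and 79.8, 87.9 and 101 at day 3. In het it was at 306, 327 and 263 CPM at day 0, 104, 117 and 107 at day 2, 61.9, 76.7 and 72.8 at day 2.5, and 80.2, 98.1 and 94.1 at day 3. Day 0 and day 2 did not overlap in either genotype, and neither did days 2 and 2.5. It fell 2.89-fold in wt and 2.70-fold in het from day 0 to day 2 (adjusted p = 2.21e-07 and 8.71e-10), and fell by 0.56 in wt and by 0.66 in het on the log2 scale to day 2.5 (adjusted p = 0.00529 and 0.000111). From day 2.5 to day 3 it rose 1.27-fold in het (adjusted p = 0.0281), a call that was lost without het day 2.5 line 1, het day 3 line 2 or het day 3 line 3 (adjusted p = 0.112, 0.0953 and 0.103), while the wt value was 0.20 in log2 (SE 0.12, adjusted p = 0.278). Of its merged exons, 4.11% overlap Bysl on the other strand, whose own level was 59.5% to 178% of that of Ccnd3.

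Ccnd1 (chr7:144929931-144939925, minus strand), a known target of Wnt signalling in other cells, ranged from 195 to 208 CPM in the 6 day 0 libraries and from 101.5 to 120.5 CPM at day 2. It fell 1.86-fold in wt and 1.70-fold in het over that step (adjusted p = 1.05e-05 and 6.78e-08), and 23.4% of its merged exons overlap LTO1 on the other strand, whose level was 22.8% to 37.9% of that of Ccnd1. After Wnt activation it ranged from 110.5 to 162.5 CPM in wt and 122 to 152 CPM in het, with log2 fold changes of 0.31 (SE 0.14, adjusted p = 0.131) and 0.17 (SE 0.09, adjusted p = 0.131), neither past the threshold. In wt this became a call without wt day 2.5 line 3 (0.44, adjusted p = 0.0392) and with all 24 libraries in a single fit (0.31, adjusted p = 0.0373), and over the alternatives the adjusted p ranged up to 0.541. The het value passed with library totals alone (0.25, adjusted p = 0.0302). From day 2.5 to day 3 the wt difference was -0.33 in log2 (SE 0.14, adjusted p = 0.130), which passed with the line as a block (-0.32, adjusted p = 0.0192), in the single fit (-0.34, adjusted p = 0.0320) and without wt day 2.5 line 3 (-0.46, adjusted p = 0.0422), with a range of 0.0192 to 0.353 over the alternatives.

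Among the D-type cyclins the balance shifted. Per kb of merged exon, Ccnd2 made up 1.77% ± 0.568 of the summed D-type level in wt at day 0 and 37.5% ± 5.47 at day 3, and 1.45% ± 0.335 and 28.9% ± 0.647 in het (SD, n = 3). The share of Ccnd3 went from 45.9% ± 3.00 to 19.3% ± 2.10 in wt and from 43.8% ± 2.33 to 19.5% ± 2.82 in het. With the median coding transcript as the length, the share of Ccnd2 went from 3.14% ± 1.05 to 59.0% ± 4.02 in wt and from 2.68% ± 0.689 to 51.6% ± 1.84 in het, and that of Ccnd3 from 84.5% ± 1.94 to 31.8% ± 2.70 in wt and from 83.9% ± 1.56 to 36.1% ± 3.34 in het (SD, n = 3).

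The E-type cyclins parted ways. Ccne1 (chr7:38097984-38107534, minus strand), whose protein drives Cdk2 at the entry to S phase, was at 366, 421 and 403 CPM in wt lines 1, 2 and 3 at day 0, 111, 132 and 97.4 at day 2, 156, 132 and 122 at day 2.5, and 76.2, 71.9 and 73.8 at day 3. In het it was at 408, 417 and 424 CPM at day 0, 114, 120 and 125 at day 2, 150.2, 132 and 161 at day 2.5, and 82.4, 79.3 and 75.8 at day 3. The day 0 libraries stood far above all others, and the day 3 libraries below all others, in both genotypes. Ccne1 fell 3.48-fold in wt and 3.46-fold in het from day 0 to day 2 (adjusted p = 6.41e-08 and 4.74e-12). It fell again from day 2.5 to day 3, 1.84-fold in wt and 1.90-fold in het (adjusted p = 0.00124 and 6.58e-05). In between, it rose 1.22-fold in het (adjusted p = 0.0158), a call lost without het day 2 line 1, het day 2.5 line 1 or het day 2.5 line 3 (adjusted p = 0.0708, 0.0530 and 0.0535), and the wt value was 0.27 in log2 (SE 0.14, adjusted p = 0.172), which passed in the single fit of 24 libraries (0.27, adjusted p = 0.0373). No annotated exon of another gene overlaps Ccne1. From day 0 to day 3 it fell 5.34-fold in wt and 5.24-fold in het.

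Ccne2 (chr4:11191351-11204779, plus strand) was at 65.8 to 67.6 CPM in wt and 69.1 to 79.7 CPM in het at day 0. It fell 1.42-fold in wt and 1.75-fold in het to day 2 (adjusted p = 0.00646 and 6.33e-06), and rose 1.66-fold and 1.95-fold to day 2.5 (adjusted p = 0.00340 and 1.14e-05). By day 3 it ranged from 72.4 to 97.8 CPM in wt and from 64.6 to 80.2 CPM in het. Against day 0 this was a rise of 1.31-fold in wt (adjusted p = 0.0191), lost without wt day 0 line 3, wt day 3 line 2 or wt day 3 line 3 (adjusted p = 0.0613, 0.0836 and 0.0742), and in het -0.0058 in log2 (SE 0.09, adjusted p = 0.962). Of its merged exons, 17.4% overlap Ints8 on the other strand, whose level was 110% to 335% of that of Ccne2. The share of Ccne1 in the summed E-type level per kb of merged exon went from 88.6% ± 0.817 at day 0 to 52.9% ± 4.58 at day 3 in wt and from 88.2% ± 0.603 to 58.8% ± 3.21 in het (SD, n = 3). With the median coding transcript as the length, it went from 93.2% ± 0.516 to 66.3% ± 4.07 in wt and from 92.9% ± 0.382 to 71.5% ± 2.72 in het (SD, n = 3).

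Both kinases fell to day 2. Cdk4 (chr10:127063534-127067920, plus strand), the main partner of D-type cyclins, was at 560 to 599 CPM in the day 0 libraries and 449 to 495 CPM at day 2, without overlap. It fell 1.27-fold in wt and 1.21-fold in het (adjusted p = 0.00449 and 0.000411). At day 2.5 it was at 514 to 670 CPM in wt and 507 to 564 CPM in het, with log2 fold changes against day 2 of 0.30 (SE 0.12, adjusted p = 0.0687) and 0.15 (SE 0.08, adjusted p = 0.118). With library totals alone both passed (adjusted p = 0.0490 and 0.0191). The wt value passed without wt day 2.5 line 3 (0.37, adjusted p = 0.0463) and ranged over the alternatives from an adjusted p of 0.00638, in the single fit, to 0.321. Between day 0 and day 3 it fell 1.18-fold in wt (adjusted p = 0.0344), a call lost without wt day 0 line 1, 2 or 3 (adjusted p = 0.0615, 0.0548 and 0.121) or wt day 3 line 2 or 3 (0.108 and 0.103), with library totals alone (0.196) and with no filter on low counts (0.0737). Of its merged exons, 19.7% overlap Tspan31 on the other strand, whose level was 8.82% to 20.1% of that of Cdk4.

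Cdk6 (chr5:3341485-3531008, plus strand), the other kinase that D-type cyclins bind, was at 23.6 to 31.6 CPM in wt and 33.9 to 34.8 CPM in het at day 0. It was at 15.0 to 21.7 CPM in wt and 18.2 to 19.2 CPM in het at day 2. It fell 1.54-fold in wt (adjusted p = 0.0141), a call lost without wt day 0 line 2 or wt day 2 line 3 (adjusted p = 0.0692 in each case), and 1.81-fold in het (adjusted p = 1.69e-05). In het it rose 1.32-fold to day 2.5 (adjusted p = 0.0303) and 1.27-fold from there to day 3 (adjusted p = 0.0355). The wt values of these steps were 0.22 (SE 0.20, adjusted p = 0.453) and 0.32 (SE 0.16, adjusted p = 0.193) in log2, the latter without overlap between the days. The het call to day 2.5 was lost without het day 2 line 1, het day 2 line 3 or het day 2.5 line 3 (adjusted p = 0.0598, 0.0624 and 0.145). The het call to day 3 was lost without het day 2.5 line 1 or 2 (0.116 and 0.120) or het day 3 line 1, 2 or 3 (0.0801, 0.0828 and 0.0718) and with all 24 libraries in a single fit (0.0728). Of its merged exons, 2.63% overlap Gm17590 on the other strand, whose level was 1.25% to 9.72% of that of Cdk6. Per kb of merged exon, Cdk6 made up 0.859% to 1.39% of the summed level of both kinases in the group means. With the median coding transcript as the length, this share was 5.39% to 8.51%.

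The bases before the RefSeq start of Cdk4 (chr10:127063285-127063534, GRCm38.p6, plus strand, written 5′ to 3′) are shown because the palindrome CACGTG, the E-box that Myc with Max and other helix-loop-helix factors can bind, occurs there 4 times (capitals). The other capitals mark ATCAAAG, the reverse complement of the TCF/LEF motif CTTTGAT.

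Cdk4: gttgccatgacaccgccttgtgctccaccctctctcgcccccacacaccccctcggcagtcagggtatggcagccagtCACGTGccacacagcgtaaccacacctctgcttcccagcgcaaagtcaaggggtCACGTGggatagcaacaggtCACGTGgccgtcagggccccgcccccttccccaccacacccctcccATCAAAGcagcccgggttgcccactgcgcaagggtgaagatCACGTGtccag

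Of the 250-base windows before 32851 RefSeq starts, 6.02% held at least 1 CACGTG and 0.0213%, that is 7 windows, held at least 4. A CTTTGAT on either strand was in 3.21% of them. The letters come from the C57BL/6J reference, while each line also carries a Castaneus chromosome, and a match of letters is not a measured binding site. Myc, which encodes the E-box factor, fell 4.58-fold from day 0 to day 2 in wt, from 88.6 ± 5.65 to 19.3 ± 4.26 CPM (SD, n = 3, adjusted p = 1.60e-07), and 3.37-fold in het (adjusted p = 3.01e-09).

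Of the inhibitors, Cdkn1b moved most. This gene (chr6:134920401-134925513, plus strand) was at 24.03, 19.8 and 22.1 CPM in wt lines 1, 2 and 3 at day 0, 91.6, 60.8 and 78.9 at day 2, 25.3, 24.6 and 34.4 at day 2.5, and 39.9, 56.6 and 47.9 at day 3. In het it was at 23.2, 23.5 and 25.7 CPM at day 0, 80.5, 67.1 and 81.9 at day 2, 29.5, 30.7 and 29.7 at day 2.5, and 46.5, 55.8 and 56.3 at day 3. Every day 2 library was above every library of the other days, and the day 2.5 libraries lay below those of day 3. Cdkn1b rose 3.53-fold in wt and 3.19-fold in het from day 0 to day 2 (adjusted p = 1.17e-06 and 5.21e-09). It fell 2.74-fold and 2.59-fold from day 2 to day 2.5 (adjusted p = 0.000121 and 4.02e-07), the step with the Wnt activator. From day 2.5 to day 3 it rose again, 1.71-fold in wt and 1.73-fold in het (adjusted p = 0.0148 and 0.000298). The wt call of this last step was lost without wt day 2.5 line 2, wt day 3 line 2 or wt day 3 line 3 (adjusted p = 0.0667, 0.0759 and 0.0544). No annotated exon of another gene overlaps Cdkn1b.

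The windows before the starts of Ccne1 (chr7:38107491-38107740, minus strand) and Cdkn1b (chr6:134920151-134920400, plus strand) are shown as examples of a cyclin gene that fell and an inhibitor gene that rose from day 0 to day 2. Windows were read for 7 of the members, and Ccnd2, which rose more, was not among them. That of the first start of Ccnd3 (chr17:47504801-47505050, plus strand) is shown for its match to the FOXO motif.

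Ccne1: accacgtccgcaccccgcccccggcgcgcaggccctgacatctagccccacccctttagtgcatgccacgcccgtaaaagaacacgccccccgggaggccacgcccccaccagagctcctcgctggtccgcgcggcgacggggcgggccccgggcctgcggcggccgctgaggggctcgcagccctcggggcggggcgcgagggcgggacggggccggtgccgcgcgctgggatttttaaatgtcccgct

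Cdkn1b: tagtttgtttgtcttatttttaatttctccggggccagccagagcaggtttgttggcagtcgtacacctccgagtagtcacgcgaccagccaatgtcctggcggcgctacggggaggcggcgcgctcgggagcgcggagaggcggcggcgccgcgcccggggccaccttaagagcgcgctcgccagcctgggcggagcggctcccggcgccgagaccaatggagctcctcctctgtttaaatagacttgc

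Ccnd3: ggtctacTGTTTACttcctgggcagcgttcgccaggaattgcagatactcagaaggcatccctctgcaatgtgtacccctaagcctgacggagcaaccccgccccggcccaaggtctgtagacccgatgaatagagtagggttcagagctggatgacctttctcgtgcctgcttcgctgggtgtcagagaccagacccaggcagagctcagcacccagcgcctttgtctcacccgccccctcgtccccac

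All are GRCm38.p6 letters, written 5′ to 3′ on the gene's strand, searched on both strands for the FOXO motif GTAAACA, the TCF/LEF motif CTTTGAT, the E-box CACGTG and the E2F letters TTTGGCGC, TTTCCCGC, TTTGCCGC or TTTCGCGC. The windows of Ccne1 and Cdkn1b held 0 matches. That of Ccnd3 held TGTTTAC (capitals), the reverse complement of GTAAACA, which 3.17% of all windows hold on either strand. The window of Ccne1 was 76.0% G or C and that of Cdkn1b 64.4%.

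The Cdkn2 genes lie side by side on chromosome 4. Cdkn2a (chr4:89274471-89294653, minus strand) was counted as 1 gene, so its Ink4a and Arf transcripts, which encode p16 and p19, cannot be told apart here. It was at 8.49 to 12.1 CPM in the day 0 libraries, 7.62 to 14.6 at day 2, 9.07 to 14.1 at day 2.5 and 13.1 to 17.4 at day 3. Day 3 lay above day 0 in both genotypes, and the change of 1.69-fold passed in het (log2 fold change 0.75, SE 0.16, adjusted p = 0.00105) but not in wt (0.39, SE 0.21, adjusted p = 0.133). In het it also rose 1.41-fold from day 2 to day 2.5 (adjusted p = 0.0380), a call lost with the line as a block (adjusted p = 0.0556), with no filter on low counts (0.0698), with all 24 libraries in a single fit (0.0507), and without het day 2 line 1 or 2 (0.0786 and 0.0690) or het day 2.5 line 1, 2 or 3 (0.122, 0.0682 and 0.0738). In het the last step came to 0.33 in log2 (SE 0.15, adjusted p = 0.122), which passed without het day 3 line 1 (0.44, adjusted p = 0.0493), with a range of 0.0493 to 0.303 over the alternatives.

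The bases before the farther of the 2 RefSeq starts of Cdkn2a (chr4:89294620-89294869, minus strand, GRCm38.p6) are shown because among the windows read, which cover 7 of the 10 members, they alone held an E2F match (TTTCCCGC, capitals).

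Cdkn2a: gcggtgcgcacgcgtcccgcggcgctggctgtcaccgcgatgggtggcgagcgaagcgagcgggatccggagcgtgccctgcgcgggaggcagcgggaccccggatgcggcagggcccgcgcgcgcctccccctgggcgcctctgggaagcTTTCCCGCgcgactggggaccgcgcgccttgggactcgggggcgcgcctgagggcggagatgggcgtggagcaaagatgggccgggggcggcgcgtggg

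Any of the 4 E2F strings was found in 1.86% of all windows. RefSeq windows were read for Ccnd3, Ccne1, Cdk4, Cdk6, Cdkn1b, Cdkn2a and Cdkn2b.

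Cdkn2b (chr4:89306299-89311039, minus strand) had 19 to 123 counts per library. It was at 1.25, 2.24 and 1.88 CPM in wt lines 1, 2 and 3 at day 0 and 3.40, 4.58 and 3.72 CPM at day 3. In het it was at 2.34, 2.35 and 3.64 CPM at day 0 and 6.30, 3.30 and 5.32 CPM at day 3. Day 0 and day 3 did not overlap in wt but did in het. It rose 2.18-fold in wt (log2 fold change 1.13, SE 0.43, adjusted p = 0.0402) and 1.79-fold in het (0.84, SE 0.31, adjusted p = 0.0279). The wt call was lost with the line as a block (adjusted p = 0.0591), with no filter on low counts (0.0533), without wt line 1 on both days (0.0749), without wt day 0 line 1 or 3 (0.0669 and 0.0799) and without wt day 3 line 1, 2 or 3 (0.0673, 0.123 and 0.0904). The het call was lost without het day 0 line 1 or 2 (0.0962 and 0.0854) without het day 3 line 1 or 3 (0.104 and 0.0841) and with all 24 libraries in a single fit (0.0738). No single step of Cdkn2b passed the test in either genotype.

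Other genes of the cell cycle were counted from 3 lists of known members. Of 26 tested genes among the other G1/S regulators, 2 rose and 12 fell from day 0 to day 2 in wt, and 4 rose and 13 fell in het, with medians of -0.12 and -0.22 on the log2 scale, beside 22.4% and 21.9% of all genes that rose and fell in wt and 28.0% and 28.1% in het. Rbl1, which encodes a relative of the retinoblastoma protein, rose 2.58-fold in wt, from 10.9 ± 3.14 to 27.9 ± 2.61 CPM (SD, n = 3, adjusted p = 0.000128), and 2.30-fold in het (adjusted p = 3.63e-06). From day 2 to day 2.5, 7 of the list rose in each genotype, and 5 fell in wt and 8 in het, beside 14.6% and 14.5% of all genes that rose and fell in wt and 21.8% and 22.9% in het. Cdkn1a, which encodes the cyclin-dependent kinase inhibitor p21, rose 4.83-fold in wt, from 39.1 ± 4.91 to 189 ± 27.7 CPM (SD, n = 3, adjusted p = 3.24e-07), and 4.24-fold in het (adjusted p = 3.36e-09), over the same step in which Cdkn1b fell. Tfdp2, which encodes a dimerisation partner of E2F factors, fell 1.89-fold in wt and 2.23-fold in het (adjusted p = 0.000386 and 4.91e-07). Over the last step, 1 rose and 4 fell in wt, and 2 rose and 7 fell in het, beside 8.99% and 10.1% of all genes in wt and 13.8% and 16.0% in het. Cdkn1a then fell 1.87-fold in wt and 1.65-fold in het (adjusted p = 0.00148 and 0.000115), opposite in sign to Cdkn1b. Rb1, the retinoblastoma gene, rose 2.06-fold in wt (adjusted p = 0.00635), and its het value was 0.34 in log2 (SE 0.13, adjusted p = 0.0669).

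Of 26 S phase genes tested, 3 rose and 11 fell from day 0 to day 2 in wt, and 2 rose and 11 fell in het, beside the shares of all genes just given for each step. Chaf1a, a subunit of the histone chaperone that follows replication, fell 1.42-fold in wt and 1.41-fold in het (adjusted p = 0.00115 and 0.000205). Pola1, the catalytic subunit of DNA polymerase alpha, went the other way in wt, rising by 0.56 in log2 from 141 ± 13.1 to 206 ± 16.8 CPM (SD, n = 3, adjusted p = 0.000811), and 1.62-fold in het (adjusted p = 2.12e-07). From day 2 to day 2.5, 4 rose and 1 fell in wt, and 5 rose and 7 fell in het, where the shares of the list were near those of all genes (21.8% and 22.9%). Pola1 fell 1.73-fold in wt and 1.93-fold in het (adjusted p = 0.000290 and 9.85e-07). Over the last step, 1 rose and 4 fell in wt and 1 rose and 8 fell in het. Pola1 was the gene that rose in wt, by 0.56 in log2 (adjusted p = 0.00754), and it rose 1.44-fold in het (adjusted p = 0.00106). Chaf1a fell 1.31-fold in wt (adjusted p = 0.0271) and 1.27-fold in het (adjusted p = 0.00512), and the wt call was lost without wt day 2.5 line 1 or 3 (0.0538 and 0.0504) or wt day 3 line 1, 2 or 3 (0.0802, 0.0684 and 0.106) and without wt line 1 on both days (0.0703).

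Of 20 G2/M genes tested, 6 rose and 4 fell from day 0 to day 2 in wt, and 8 rose and 5 fell in het, beside 22.4% and 21.9% of all genes that rose and fell in wt and 28.0% and 28.1% in het. Bub1, a kinase of the spindle checkpoint, rose 1.86-fold in each genotype, from 268 ± 16.3 to 495 ± 40.6 CPM in wt (SD, n = 3, adjusted p = 6.74e-06) and with an adjusted p of 1.73e-09 in het. Mybl2, a transcription factor of G2/M genes, fell 4.0-fold in wt and 3.34-fold in het (adjusted p = 8.15e-08 and 7.13e-12). From day 2 to day 2.5, 0 rose and 10 fell in wt, and 1 rose and 16 fell in het, with medians of -0.38 and -0.76 beside 0.0011 and 0.0099 over all genes, of which 14.6% rose and 14.5% fell in wt and 21.8% and 22.9% in het. Top2a, which encodes the topoisomerase of mitotic chromosomes, fell 2.01-fold in wt, from 1456 ± 58.8 to 728 ± 52.3 CPM (SD, n = 3, adjusted p = 2.18e-05), and 2.20-fold in het (adjusted p = 4.37e-08). Over the last step, 4 rose and 1 fell in wt, and 6 rose and 0 fell in het, beside 8.99% and 10.1% of all genes in wt and 13.8% and 16.0% in het. Cenpf, a kinetochore protein gene, rose 1.46-fold in wt and 1.37-fold in het (adjusted p = 0.00516 and 0.00443). Cdc20, an activator of the anaphase-promoting complex, fell 1.38-fold in wt (adjusted p = 0.0330) against -0.16 in log2 in het (SE 0.09, adjusted p = 0.195), and its wt call was lost without wt day 2.5 line 1 or 2 (0.0634 and 0.0745) or wt day 3 line 1, 2 or 3 (0.0573, 0.113 and 0.105).

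**Figure D4:**
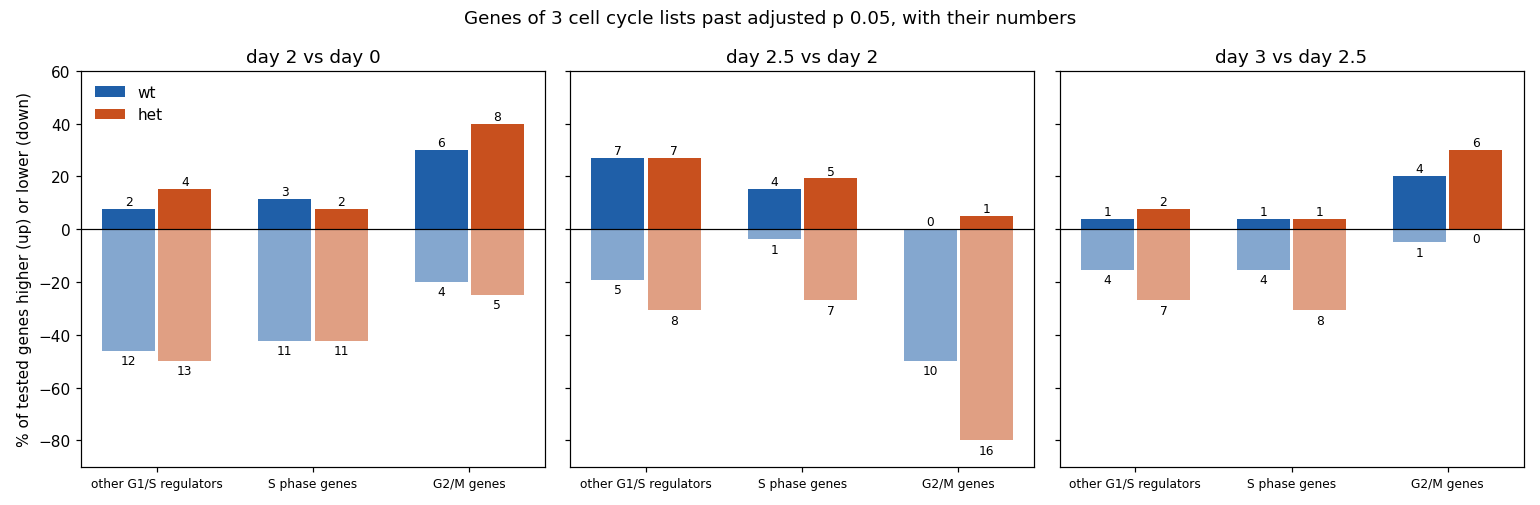
Share of the tested genes of 3 cell cycle lists that passed an adjusted p of 0.05, drawn upwards for genes that rose and downwards for genes that fell, over each step in wt (blue) and het (orange), with the number of genes at each bar. For the G2/M genes, 10 of 20 in wt and 16 of 20 in het fell from day 2 to day 2.5.

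Between genotypes, Ccnd2 at day 2 was the single member to differ. Its levels at that day, 59.6, 95.5 and 96.1 CPM in wt and 40.2, 44.6 and 43.2 CPM in het, did not overlap, and het was 1.97-fold lower (log2 fold change -0.98, SE 0.16, adjusted p = 0.0118). In this comparison 1 of 10 members was called, beside 0.551% of the 15414 genes tested (85 genes). The call of Ccnd2 was lost without wt day 2 line 3 (adjusted p = 0.109) and without het day 2 line 1, 2 or 3 (0.161, 0.0796 and 0.0837), while over all alternatives the log2 fold change lay between -1.18 and -0.87 and the adjusted p between 1.91e-11 and 0.161. All genes called came to 8 without wt day 2 line 3, and to 1, 3 and 0 without het day 2 line 1, 2 or 3. The DESeq2 Wald test called 233 genes. Extraembryonic endoderm markers differed in the same direction on that day. Of 19 tested, 13 were lower in het and 0 higher, with a median log2 fold change of -1.02, and their summed level was 8215, 11150 and 16110 CPM in wt lines 1, 2 and 3 and 5051, 6893 and 6529 CPM in het. This list was chosen with earlier results of these data known. In the fits that lost the Ccnd2 call, fewer than 13 genes were called in all, so these 13 calls cannot all hold there. The part of these markers in the difference of Ccnd2 was not tested. Of all 22 listed markers, Afp had 0 counts in the 3 het libraries of day 2, and in wt no marker was at 0 in all 3 libraries of that day. Afp was also at 0 in all 3 libraries of wt day 0 and of het day 3.

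On the other days no member was called. At day 0, 0 of 10 members and 0% of genes were called by edgeR, with 1 member and 1649 genes at an unadjusted p under 0.05, and DESeq2 called 82 genes. At day 2.5 the counts were again 0 of 10 and 0%, with 0 members and 822 genes at an unadjusted p under 0.05 and 3 genes by DESeq2. At day 3, 0 of 10 members and 0.00638% of genes were called, with 3 members and 1432 genes at an unadjusted p under 0.05 and 116 genes by DESeq2. On the sum of each line's 4 libraries, 0 of 10 members and 0.00544% of genes were called, with 3 members and 1663 genes at an unadjusted p under 0.05 and 145 genes by DESeq2. Without wt line 1, the line that stood apart on chromosome 8, the genes called by edgeR came to 35 at day 0, 211 at day 2, 0 at day 2.5, 93 at day 3 and 404 in the sums, and the members called to 0, 1, 0, 1 and 1, Ccnd2 in each case. DESeq2 called Ccnd2 at day 2 and no other member in any of these comparisons. Lines of wt and het did not overlap for 3 members at day 0 (Ccne2, Cdk6 and Cdkn2b, all higher in het), beside 16.7% of all genes tested. They did not overlap for 1 member at day 2 (16.0% of genes), 0 at day 2.5 (11.4%), 2 at day 3 (Ccnd2 lower and Cdk6 higher, 13.9%) and 2 in the sums (Ccnd3 lower and Cdk6 higher, 13.7%).

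Day 3 levels of Ccnd2 were 140.0 to 148 CPM in het and 152 to 217 CPM in wt, a difference of -0.38 in log2 (SE 0.12) that did not pass (adjusted p = 0.404 by edgeR). This passed without wt day 3 line 1 (-0.51, adjusted p = 0.0392) and with no filter on low counts (-0.37, adjusted p = 0.0499), and the adjusted p ranged up to 0.814 over the alternatives. The day 0 difference was -0.40 (SE 0.23, adjusted p = 0.547) and the day 2.5 difference -0.014 (SE 0.14, adjusted p = 0.996). In the sums it was -0.23 (SE 0.10, adjusted p = 0.523), which passed without wt line 1, the line that stood apart on chromosome 8 (-0.34, adjusted p = 0.0176) and reached 1.00 over the alternatives. Endoderm markers had medians of -0.81, -0.47 and -0.67 at days 0, 2.5 and 3, with 0 of 19 called on each of these days. Cdk6 was higher in het on each day, by 0.28 (SE 0.13), 0.044 (SE 0.18), 0.24 (SE 0.16) and 0.29 (SE 0.11) on the log2 scale from day 0 to day 3 in order, and none of these passed (adjusted p = 0.452, 0.970, 0.908 and 0.494 by edgeR). The day 2 value of Cdk6 changed sign without wt day 2 line 3 (-0.0747). The other 8 members lay between -0.36 and 0.62 on every day.

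**Figure D5:**
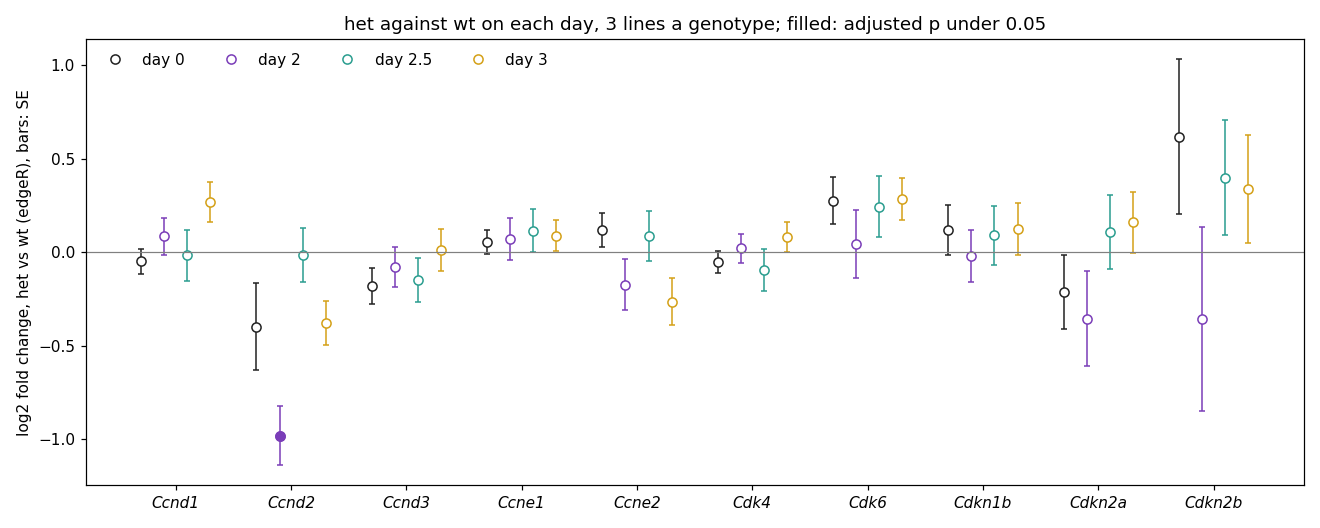
Log2 fold change (edgeR) of het against wt for each gene on each of the 4 days, with bars for the SE from 3 lines a genotype. The single filled point, Ccnd2 at day 2 at -0.98, passed an adjusted p of 0.05.

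Whether a step differed between genotypes was tested by an interaction term. No member and 0% of genes passed for the step from day 0 to day 2 (16387 genes tested), for that from day 2 to day 2.5 (16569 genes, 0%) or for that from day 2.5 to day 3 (16486 genes, 0%). At an unadjusted p under 0.05 there were 1034, 850 and 635 genes by edgeR, and DESeq2 called 10, 0 and 0 genes and no member. Ccnd2 had the only member p under 0.05, from day 2 to day 2.5, when it rose by 0.95 more in het than in wt on the log2 scale (SE 0.23, adjusted p = 0.952), with het lines changing by 1.97, 1.93 and 1.71 and wt lines by 1.11, 0.77 and 0.93. For this interaction 18 of 20 endoderm markers tested were positive, with a median of 0.49 beside -0.0038 over all genes and 0 called, and their part in the value of Ccnd2 was not tested. The Ccnd2 interaction passed without wt line 1, the line that stood apart on chromosome 8 (1.02, adjusted p = 0.0211) and with no filter on low counts (0.96, adjusted p = 0.000115), and its adjusted p reached 1.00 over the alternatives. From day 0 to day 2 the Ccnd2 interaction was -0.58 (SE 0.29, adjusted p = 0.793).

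Over all 24 libraries, the genes whose log2 CPM followed each member most closely were named as a description, among 12457 genes averaging 50 counts or more. The libraries share lines and days, so these values of Pearson's r carry no p. They were Rcor2 (0.96) and Trp53 (0.96) for Ccnd1, Flt1 (0.98) and Slc39a8 (0.98) for Ccnd2, and Icam1 (0.98) and Hic2 (0.98) for Ccnd3. For the E-type cyclins they were Actl6a (0.99) and Trim28 (0.99) for Ccne1, and Slc39a9 (0.93) and Ywhab (0.92) for Ccne2. For the kinases they were Edc4 (0.92) and Zfp13 (0.92) for Cdk4, and Trps1 (0.87) and Peg10 (0.86) for Cdk6. Cdkn1b was followed by Ccng2 (0.96), a cyclin gene of resting cells. The Cdkn2 genes had looser matches, Sema4f (0.79) and Tjap1 (0.78) for Cdkn2a and Wdr78 (0.79) and Gm9747 (0.77) for Cdkn2b. Between members, r was 0.91 for Ccnd1 with Ccne1, -0.94 for Ccnd2 with Ccnd3 and -0.84 for Cdk4 with Cdkn1b.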

How the data were processed

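The authors sequenced poly(A) RNA (single-end reads), trimmed reads with Trim Galore 0.4.4, aligned them with HISAT2 2.0.5 to GRCm38.p6 and imported the alignments into SeqMonk, whose pipeline gave log2 RPKM. How the raw counts were exported is not given in the sources used here. The deposited raw counts were used as they stood, for 35591 genes in 24 libraries of 7.10 to 20.8 M counts. The authors' log2 RPKM tables and 8 columns of group means were not used. The members and all gene lists were chosen with earlier results of these data known.

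Each comparison (8 between days, 5 between genotypes and 3 interactions) was fitted with edgeR 4.0.16 in R 4.3.3, by its quasi-likelihood test with TMM scaling and filterByExpr, and p-values were Benjamini-Hochberg adjusted over all genes tested, with calls under 0.05. Figures were drawn with matplotlib 3.10.9. SE is the log2 fold change over the root of F. The lines are separate, and p-values measure the spread between them. In each pathway list, the gene named per direction and step was the one with the smallest adjusted p in wt among called genes averaging 50 counts or more in either group. The 2 genes most like each member had the highest Pearson r of log2 CPM over 24 libraries. Some genes that these rules pick are not reported here. Lengths are merged exons.

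The alternatives were DESeq2 1.42.0 (size factors, and its Wald test), library totals alone, other filters, a single fit, a block by line, and leaving out each library (each line in the sums and interactions). The 4 samples of a line come from the same cell line, so numbers pair days within a genotype. Residuals of same-numbered samples correlated at -0.104 to 0.481 over 12457 genes, above 0.1 in 10 of 24 pairs. The fit without the block was kept as planned.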

Additional observations from a re-analysis of the deposited data

Results flagged for a closer look

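Ccne2 went up between days 2.5 and 3 in all 3 wt lines, with a mean log2 change of 0.1539, and down in all 3 het lines, with a mean of -0.1802. It was singled out because every line of one genotype moved opposite to every line of the other. The interaction term did not pass by edgeR's quasi-likelihood test (-0.35, SE 0.20, adjusted p = 0.999), and its adjusted p ranged from 0.760 to 1.00 over the alternatives. Reads from Ints8, whose exons overlap Ccne2 on the other strand, cannot be told apart from those of Ccne2.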

How the results depend on the processing

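Over the 10 genes and 16 comparisons, called values kept their direction and their call in 333 of the results of alternatives that used every library and lost the call in 9. Results that left out 1 library (in the sums and interactions, 1 line, and in wt steps also line 1 on both days) kept a call in 270 cases and lost it in 46, and no called value changed direction under any alternative. Of values not called, 10 results passed with every library and 7 with 1 library or line left out, and 16 and 71 changed sign. The cause was not tested. The smallest counts were those of Cdkn2b, 19 to 123 per library. Numbers of wt and het lines do not pair across genotypes.

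With all 24 libraries in a single fit, the number of members called was 7 for day 2.5 against day 2, wt. With all 24 libraries in a single fit, the number of genes called was 1 for het against wt, day 0, 23 for het against wt, day 2, 1 for het against wt, day 2.5 and 15 for het against wt, day 3. With no filter beyond 1 count, the number of members called was 1 for het against wt, day 3 and 1 for the interaction for day 2.5 against day 2. With no filter beyond 1 count, the number of genes called was 369 for het against wt, day 0, 384 for het against wt, day 2, 87 for het against wt, day 2.5, 274 for het against wt, day 3, 190 for het against wt in the summed counts, 58 for the interaction for day 2 against day 0, 33 for the interaction for day 2.5 against day 2 and 23 for the interaction for day 3 against day 2.5. With the line number as a replicate block, the number of genes called was 4687 for day 3 against day 2.5, wt, 25 for het against wt, day 0, 100 for het against wt, day 3, 50 for het against wt in the summed counts and 2 for the interaction for day 2 against day 0. For het against wt this block joins unrelated lines that share a number. With the DESeq2 Wald test, the number of genes called was 82 for het against wt, day 0, 233 for het against wt, day 2, 3 for het against wt, day 2.5, 116 for het against wt, day 3, 145 for het against wt in the summed counts and 10 for the interaction for day 2 against day 0. With a filter at a mean of 50 counts, the number of genes called was 131 for het against wt, day 2. The block changed the call of Cdkn2a from day 2 to day 2.5 in het, of Cdkn2b from day 0 to day 3 in wt and of Ccnd1 from day 2.5 to day 3 in wt, and of no other member.

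Values not called that changed sign were these, as log2 fold changes. With library totals alone they were 0.0154 for Cdk6 (day 3 against day 0, wt), 0.0300 for Cdkn2b (day 2 against day 0, het), 0.0114 for Cdk4 (day 3 against day 2.5, het), 0.1104 for Ccne2 (day 3 against day 0, het), 0.0072 for Cdk4 (day 3 against day 0, het), 0.0399 for Cdk6 (day 3 against day 0, het), 0.0056 for Ccnd2 (het against wt, day 2.5) and 0.0094 for Ccne2 (het against wt in the summed counts). With DESeq2 size factors they were 0.0014 for Cdk4 (day 3 against day 2.5, het). With no filter beyond 1 count they were 0.0110 for Cdk4 (day 3 against day 2.5, het) and 0.00078 for Ccne2 (het against wt in the summed counts). With the DESeq2 Wald test they were 0.0014 for Cdk4 (day 3 against day 2.5, het). With all 24 libraries in a single fit they were 0.0042 for Cdk4 (day 3 against day 2.5, het). With a filter at a mean of 50 counts they were 0.0076 for Ccne2 (day 3 against day 0, het), -0.0039 for Cdk4 (het against wt in the summed counts) and -0.00014 for Cdkn2a (het against wt in the summed counts).

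Leaving out 1 library or line at a time as above, the number of members called ranged from 1 to 3 for day 3 against day 2.5, wt, 5 to 7 for day 3 against day 0, wt, 4 to 6 for day 2.5 against day 2, het, 2 to 4 for day 3 against day 2.5, het, 0 to 1 for het against wt, day 2, 0 to 1 for het against wt, day 3, 0 to 1 for het against wt in the summed counts and 0 to 1 for the interaction for day 2.5 against day 2. Leaving out 1 library or line at a time as above, the number of genes called ranged from 1281 to 3098 for day 3 against day 2.5, wt, 3014 to 4227 for day 3 against day 2.5, het, 0 to 68 for het against wt, day 0, 0 to 211 for het against wt, day 2, 0 to 3 for het against wt, day 2.5, 0 to 93 for het against wt, day 3, 0 to 404 for het against wt in the summed counts, 0 to 2 for the interaction for day 2.5 against day 2 and 0 to 1 for the interaction for day 3 against day 2.5. The values not called that changed sign spanned these log2 ranges. For day 2 against day 0, wt they were Cdkn2a -0.2260 to 0.2353. For day 2.5 against day 2, wt they were Cdkn2a -0.1560 to 0.3101 and Cdkn2b -0.4522 to 0.1886. For day 3 against day 0, wt they were Cdk6 -0.1819 to 0.0201. For day 2 against day 0, het they were Cdkn2b -0.4557 to 0.3205. For day 3 against day 2.5, het they were Ccnd1 -0.1511 to 0.0525 and Cdk4 -0.0480 to 0.0375. For day 3 against day 0, het they were Ccne2 -0.0774 to 0.0692. For het against wt, day 2 they were Ccne1 -0.0262 to 0.1903, Cdk4 -0.0197 to 0.0544, Cdk6 -0.0747 to 0.1890 and Cdkn1b -0.1658 to 0.1151. For het against wt, day 2.5 they were Ccnd1 -0.1395 to 0.1236, Ccnd2 -0.1577 to 0.1140, Ccne2 -0.0347 to 0.1568, Cdk4 -0.1596 to 0.0192, Cdkn1b -0.0063 to 0.2776 and Cdkn2a -0.0377 to 0.2916. For het against wt, day 3 they were Ccnd3 -0.0650 to 0.1032. For het against wt in the summed counts they were Ccne2 -0.0809 to 0.0634, Cdk4 -0.0325 to 0.0497, Cdkn1b -0.0775 to 0.0034 and Cdkn2a -0.1042 to 0.1288. For the interaction for day 2 against day 0 they were Ccne1 -0.1061 to 0.0680. For the interaction for day 2.5 against day 2 they were Ccnd1 -0.2019 to 0.0622, Ccne1 -0.1146 to 0.1586, Cdk4 -0.2105 to 0.0159, Cdk6 -0.0842 to 0.4034 and Cdkn1b -0.1290 to 0.2602. For the interaction for day 3 against day 2.5 they were Ccne1 -0.1098 to 0.0664, Cdk6 -0.0843 to 0.1994, Cdkn1b -0.1460 to 0.2390, Cdkn2a -0.1722 to 0.2835 and Cdkn2b -0.3975 to 0.1562.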
